A study of Mus musculus with 6 samples.

Results

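Expression of 10 core genes of the hypoxia-inducible factor (HIF) pathway was examined in cardiomyocytes (CMs) that lacked *Cpt1b*, the muscle isoform of the enzyme that admits long-chain fatty acids to mitochondria. The genes were chosen by name for their place in the pathway and comprised the HIF subunits *Hif1a*, *Epas1*, *Hif3a* and *Arnt*, the prolyl hydroxylases *Egln1*, *Egln2* and *Egln3*, the ubiquitin ligase gene *Vhl*, and the target genes *Vegfa* and *Ankrd37*. All 10 were found among the 16448 genes of the deposited table, and 8 were tested because they reached 10 in 3 samples or more. RNA-seq was available for 3 CtrlCre and 3 Cpt1bcKO samples of the C57BL/6 strain at an age of 8 to 12 weeks. Cpt1bcKO mice carried αMHC-Cre and floxed *Cpt1b* alleles, whereas CtrlCre mice carried the same Cre with wild-type *Cpt1b*, so that the Cre transgene is common to both groups. The αMHC promoter drives Cre in CMs and does so from embryonic stages, so that deletion in Cpt1bcKO mice is limited to CMs and precedes adulthood. RNA was taken from CMs obtained by enzymatic digestion of ventricles.

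HIF is a transcription factor of an oxygen-labile α subunit and the stable partner ARNT. In the presence of oxygen, the prolyl hydroxylases encoded by the *Egln* genes modify the α subunit, VHL binds the modified protein and marks it for degradation, and under hypoxia the stabilized dimer binds short DNA motifs and switches on genes of angiogenesis, glycolysis and survival. The hydroxylases consume α-ketoglutarate and oxygen, and *Egln3* is itself a HIF target in many cells. Control of the α subunit acts mainly on the protein, which RNA-seq does not measure.

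The values are normalized counts, meaning read counts scaled by the authors with a size factor per sample and then rounded. The targeted gene had 1861, 893 and 1443 normalized counts in CtrlCre samples 1, 2 and 3 and 211, 353 and 285 in Cpt1bcKO samples 1, 2 and 3. Summed values ranged from 13393411 to 31722217, of which the mitochondrial rRNA gene *mt-Rnr2* made up 61.8% to 80.8%, with the highest share in Cpt1bcKO sample 3. In the 4 samples in which the spacing of low values was clearest, 1 read was worth 0.68 to 1.29 normalized counts, so values near 30 carry a considerable counting error. *Xist* (957 and 1080 normalized counts) and the Y-linked *Ddx3y* (0 in both) showed that sample 1 was female in both groups, whereas samples 2 and 3 were male. CM markers summed to 322199 to 617314 normalized counts. Markers of other cells were present at lower sums, 2117 to 4870 for endothelium, 1104 to 2305 for fibroblasts, 606 to 1998 for smooth muscle and pericytes, 138 to 242 for leukocytes and 1 to 20 for red blood cells, and no marker with a row was at 0 in every sample. Summed fibroblast markers did not overlap between the groups, with 1104, 1444 and 1470 in CtrlCre and 2305, 2108 and 1866 in Cpt1bcKO samples, and of the 9 tested, 8 were higher at an unadjusted *P* value below 0.05 and *Lum* and *Col1a1* passed the adjusted test described next. The 8 became 5 without CtrlCre sample 1 or without Cpt1bcKO sample 1 or 2, and 4 in the male samples alone, and 0 passed adjustment without Cpt1bcKO sample 2. Atrial markers summed to 146 to 265 normalized counts in CtrlCre and 477 to 720 in Cpt1bcKO samples. Most of each sum was *Nppa*, with 177, 93 and 144 in CtrlCre and 683, 452 and 384 in Cpt1bcKO samples. *Nppa* passed, but not without Cpt1bcKO sample 2 or without a trend of the prior variance. *Myl4*, the other atrial marker tested, had 16, 48 and 102 in CtrlCre and 30, 67 and 83 in Cpt1bcKO samples. These overlap (log2 difference 0.35, adjusted *P* = 0.836 in limma). The study treats *Nppa* as a dedifferentiation marker.

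The comparison used log2(value + 1), with limma's moderated test run over 11364 genes, and log2 differences are Cpt1bcKO minus CtrlCre. With Benjamini–Hochberg adjustment, 178 genes passed at 0.05, or 1.57% of those tested, of which 75 (0.66%) were higher and 103 (0.906%) lower in Cpt1bcKO CMs. The split depended on scaling, because values scaled to a total that leaves out mitochondrial and rRNA genes put 103 calls higher and 74 lower and moved the median log2 difference of all genes by 0.108. Of the 8 tested core genes, 0 passed in limma after adjustment, in a fit without a term for sex or replicate number. At an unadjusted *P* value below 0.05, the threshold of the study, 4 of the 8 were past it, against 13.9% of all genes tested. The core genes were chosen with earlier results of these data known, so this count is not that of an independent set. *Hif1a* and *Vegfa* were higher, as 6.66% of all genes tested were, and *Egln1* and *Egln3* were lower, as were 7.22%. These shares depended on scaling too, with 757 genes higher and 821 lower here but 1221 higher and 505 lower under the scaling that leaves out mitochondrial and rRNA genes. The unadjusted *P* value of *Egln1* in limma was 0.0512 under that scaling, 0.0536 without CtrlCre sample 2 and 0.0556 without Cpt1bcKO sample 3, and that of *Hif1a* was 0.0685 without CtrlCre sample 3, so that 3 core genes were then past the threshold. The same 4 genes had groups without overlap, which held for 18.7% of all genes tested, 9.13% upwards and 9.6% downwards.

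**Figure D1:**
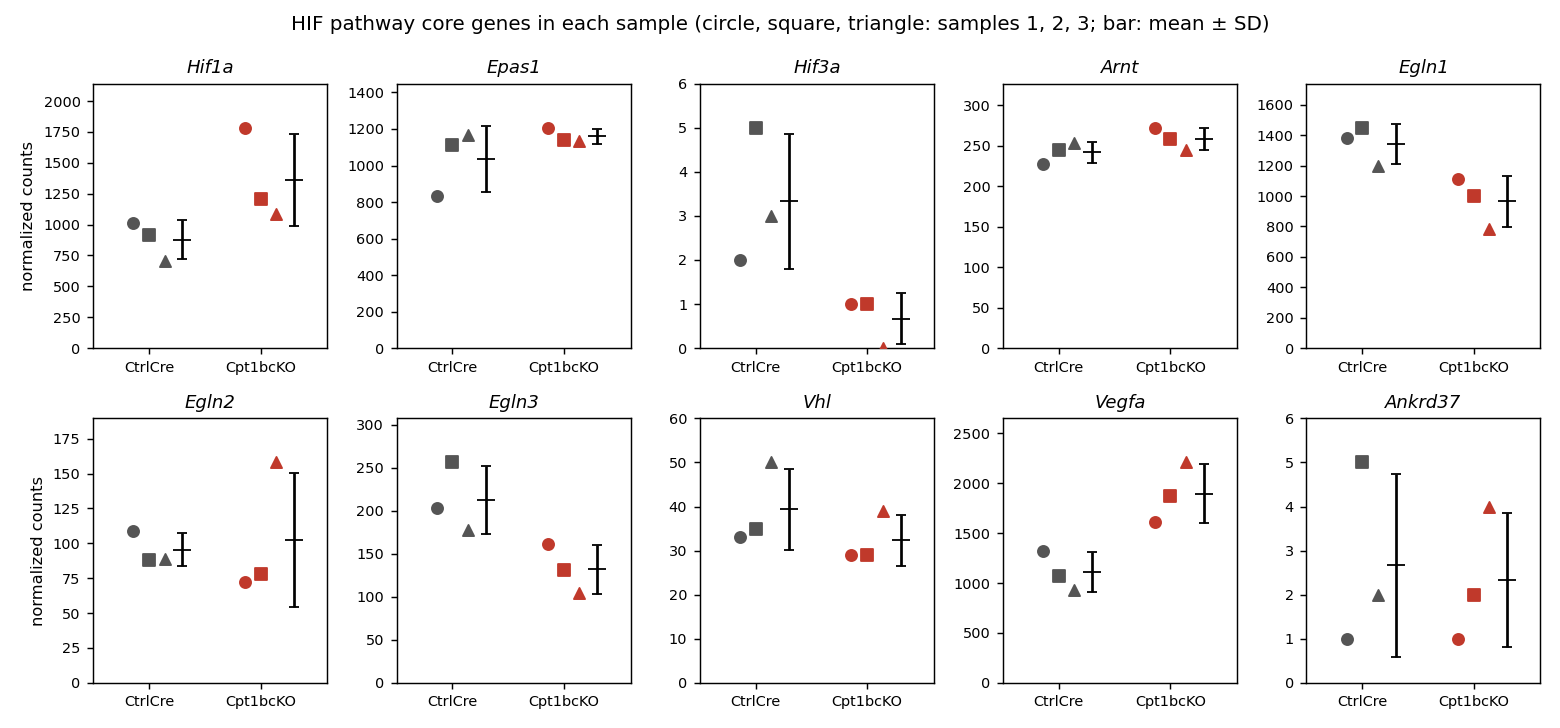
Normalized counts of the 10 core genes in each sample, with CtrlCre in grey and Cpt1bcKO in red, and the mean ± SD of 3 samples as a bar. The groups are apart for *Hif1a*, *Egln1*, *Egln3* and *Vegfa*, and for *Hif3a* at 0 to 5 normalized counts, and they overlap for the other genes.

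Levels of different genes were set side by side per kb of exon. In CtrlCre CMs the order was *Egln1* with 373 ± 36.0 (SD, *n* = 3) normalized counts per kb, *Vegfa* with 259 ± 46.3, *Epas1* with 185 ± 32.2, *Hif1a* with 149 ± 26.8 and *Egln3* with 79.8 ± 15. Next came *Egln2* with 34 ± 4.23, *Arnt* with 30.2 ± 1.66 and *Vhl* with 13.1 ± 3.10 normalized counts per kb (SD, *n* = 3 each). *Ankrd37* and *Hif3a* were last, with means of 1.73 and 0.497 per kb. Of these neighbours, *Epas1* and *Hif1a* overlapped between samples, as did *Egln2* and *Arnt*, and *Ankrd37* and *Hif3a*. The hydroxylase genes thus covered a wide range, with *Egln1* making up 76.0% to 77.2% of their summed level per kb in CtrlCre and 69.5% to 78.3% in Cpt1bcKO samples. In Cpt1bcKO CMs *Vegfa* stood first with 443 ± 69.6 per kb, ahead of *Egln1* with 268 ± 46.4, and the groups of samples behind these means were apart. *Hif1a* followed with 231 ± 63.3 and *Epas1* with 208 ± 7.21 per kb, and neither could be separated from the other, nor *Hif1a* from *Egln1*, by the samples' spread.

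**Figure D2:**
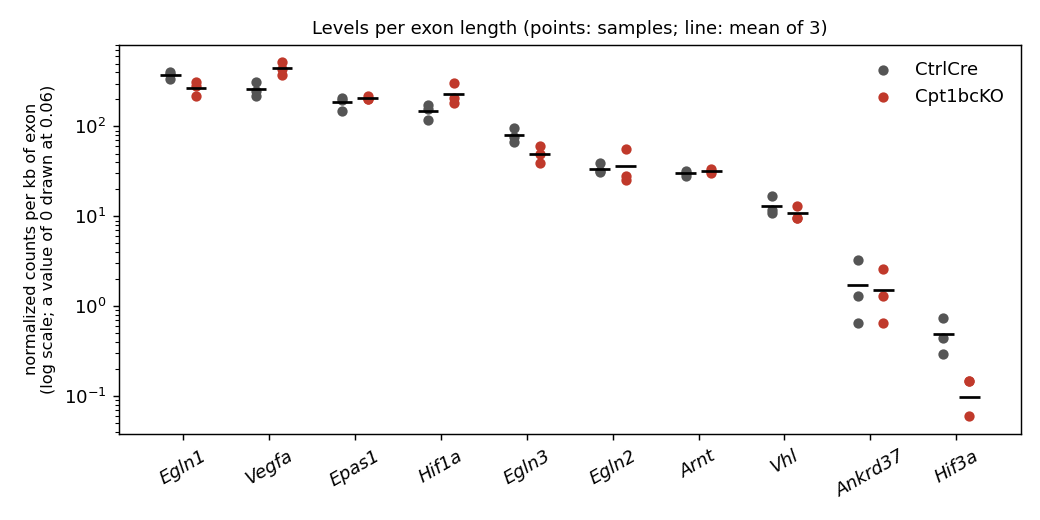
Normalized counts per kb of joined exons on a log axis for the 10 core genes, ordered by the CtrlCre mean, with 1 point per sample and a line at the mean of 3 samples. *Egln1* leads in CtrlCre with 373 per kb and *Vegfa* in Cpt1bcKO with 443 per kb, while *Ankrd37* and *Hif3a* lie far below the rest.

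Promoters of the 4 tested core genes whose groups did not overlap are shown because HIF acts through the motif core ACGTG or GCGTG. The sequences are those of RefSeq on GRCm38.p6, 5′ to 3′ on the gene's strand and up to the RefSeq transcription start (for *Egln1*, up to the annotated gene, 70 bases before that start), with each core in capitals on either strand (the reverse complements read CACGT and CACGC).
*Hif1a*, chr12:73907617-73907866, plus strand: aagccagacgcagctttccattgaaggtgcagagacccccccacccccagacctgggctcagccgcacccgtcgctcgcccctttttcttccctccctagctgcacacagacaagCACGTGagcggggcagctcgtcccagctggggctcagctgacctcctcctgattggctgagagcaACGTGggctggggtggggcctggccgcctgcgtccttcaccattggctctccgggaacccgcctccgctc
*Vegfa*, chr17:46032378-46032627, minus strand: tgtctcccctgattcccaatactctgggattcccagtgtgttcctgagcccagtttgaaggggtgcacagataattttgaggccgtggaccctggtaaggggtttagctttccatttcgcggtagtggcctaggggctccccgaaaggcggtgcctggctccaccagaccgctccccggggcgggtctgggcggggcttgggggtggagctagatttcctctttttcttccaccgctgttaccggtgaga
*Egln3*, chr12:54203875-54204124, minus strand: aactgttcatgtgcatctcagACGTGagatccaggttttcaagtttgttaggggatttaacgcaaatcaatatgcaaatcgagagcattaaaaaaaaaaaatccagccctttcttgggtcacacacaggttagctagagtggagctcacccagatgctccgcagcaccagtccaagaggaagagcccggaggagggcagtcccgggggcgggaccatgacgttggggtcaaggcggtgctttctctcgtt
*Egln1*, chr8:124949325-124949504, minus strand: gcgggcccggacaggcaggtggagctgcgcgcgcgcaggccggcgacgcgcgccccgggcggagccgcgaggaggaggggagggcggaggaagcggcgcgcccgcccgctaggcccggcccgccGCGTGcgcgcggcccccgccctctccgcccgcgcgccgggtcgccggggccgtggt
The *Hif1a* window holds 3 cores, of which 2 overlap on opposite strands as CACGTG, and lies 6492 bases inside the gene as the deposited table bounds it, just before the start that RefSeq gives. The *Vegfa* window holds 0 cores, whereas a second RefSeq window of *Vegfa*, 7206 bases inside the gene and not printed, holds 2. That of *Egln3* holds 1 core, which begins 229 bases before the start. For *Egln1*, 180 bases outside the annotated gene are printed, with 1 core, and the whole window of 250 bases holds 2. Among 32851 promoter windows of 250 bases, 38.6% held at least 1 core, 16.7% at least 2 and 6.6% at least 3. Windows were found for 9 of the 10 core genes, *Epas1* being the other. *Ankrd37*, a gene known for its induction by HIF, held 4 cores, of which 2 overlap, and the first *Egln2* window also held 4. The matches describe these letters alone.

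Among the α subunits, *Hif1a* was higher in Cpt1bcKO CMs by 0.62 on the log2 scale (95% interval 0.16 to 1.07), which did not pass the test. *Hif1a* (ENSMUSG00000021109, chromosome 12 from 73901375 to 73947530, plus strand, GRCm38) encodes the α subunit found in most cells. Its normalized counts were 1014, 912 and 704 in CtrlCre and 1784, 1211 and 1084 in Cpt1bcKO samples 1, 2 and 3. Every Cpt1bcKO sample was above every CtrlCre sample, and Cpt1bcKO sample 1 stood furthest out. The adjusted *P* was 0.208 in limma (0.0136 unadjusted). The difference was 0.40 (adjusted *P* = 0.232 in limma) without Cpt1bcKO sample 1, and 0.52 (adjusted *P* = 0.138 in limma) in the male samples 2 and 3 alone. Of the *Hif1a* exon bases, 5.6% are shared with the antisense gene *Gm15283*, which had 29 to 73 normalized counts, and 2.5% with the protein-coding gene *Gm49321* on the same strand. *Gm49321* had no row among the deposited values, and whether the authors' annotation held it is not known. If it did, reads on both genes would not have been counted.

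*Epas1* (ENSMUSG00000024140, chromosome 17 from 86753907 to 86833410, plus strand) encodes HIF-2α, the α subunit best known from endothelium. It had 831, 1112 and 1166 normalized counts in CtrlCre and 1207, 1141 and 1134 in Cpt1bcKO samples 1, 2 and 3, and the groups overlapped. CtrlCre sample 1 stood below the rest. The log2 difference was 0.18 with a 95% interval from -0.17 to 0.53 (adjusted *P* = 0.663 in limma), and 0.03 without CtrlCre sample 1. Summed endothelial markers were 2117, 4223 and 4442 in CtrlCre and 4535, 4870 and 4234 in Cpt1bcKO samples, so the sample lowest in *Epas1* was lowest in these markers as well. All 12 endothelial markers had log2 differences above 0, with a median of 0.38, although 0 passed adjustment in limma and 2 had an unadjusted *P* value below 0.05. Without CtrlCre sample 1 the median was 0.03, with 8 of 12 above 0, and in the male samples alone it was 0.05, with 6 above and 6 below. In bulk RNA, a change in the number of cells of a type and a change in RNA per cell cannot be told apart, and the part of endothelial RNA in the *Epas1* values was not tested.

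*Hif3a* (ENSMUSG00000004328, chromosome 7 from 17031507 to 17062427, minus strand) encodes an α subunit with splice forms that restrain the other two. It had 2, 5 and 3 normalized counts in CtrlCre and 1, 1 and 0 in Cpt1bcKO samples, all of them below the filter and too few reads for a fold. *Arnt* (ENSMUSG00000015522, chromosome 3 from 95434388 to 95497240, plus strand), the shared partner of the α subunits, had the smallest standard error of the tested core genes (0.148 on the log2 scale). It had 227, 245 and 253 normalized counts in CtrlCre and 272, 258 and 245 in Cpt1bcKO samples, which overlap. Its log2 difference was 0.10, with a 95% interval from -0.23 to 0.42 (adjusted *P* = 0.82 in limma).

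Both *Egln1* and *Egln3* were lower in Cpt1bcKO CMs, by 0.49 and 0.69 on the log2 scale, without passing the test. *Egln2* had a difference of 0.02, which rested on Cpt1bcKO sample 3. *Egln1* (ENSMUSG00000031987, chromosome 8 from 124908587 to 124949324, minus strand) encodes PHD2, the main oxygen sensor of the HIF pathway. It had 1379, 1449 and 1198 normalized counts in CtrlCre and 1111, 1000 and 783 in Cpt1bcKO samples 1, 2 and 3. The lowest CtrlCre sample was thus above the highest Cpt1bcKO sample. The log2 difference of -0.49 (95% interval -0.85 to -0.13) had an adjusted *P* = 0.205 in limma (0.013 unadjusted). It was -0.34 without Cpt1bcKO sample 3 and -0.57 in the male samples alone.

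*Egln3* (ENSMUSG00000035105, chromosome 12 from 54178981 to 54203860, minus strand) encodes PHD3, whose transcript is induced by HIF in many cells. Its normalized counts were 203, 256 and 178 in CtrlCre and 161, 131 and 104 in Cpt1bcKO samples, again without overlap. *Egln1* and *Egln3* placed all 6 samples in the same order, from CtrlCre sample 2 at the top to Cpt1bcKO sample 3 at the bottom. The log2 difference of *Egln3* was -0.69 (95% interval -1.16 to -0.22), with an adjusted *P* = 0.173 in limma (0.00858 unadjusted), and it was -0.87 (adjusted *P* = 0.0913 in limma) in the male samples alone. It was -0.55 (adjusted *P* = 0.401 in limma) without CtrlCre sample 2 and -0.53 (adjusted *P* = 0.36 in limma) without Cpt1bcKO sample 3.

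*Egln2* (ENSMUSG00000058709, chromosome 7 from 27158658 to 27166802, minus strand) encodes PHD1, which is mostly nuclear. It had 109, 88 and 89 normalized counts in CtrlCre and 72, 78 and 158 in Cpt1bcKO samples 1, 2 and 3. Cpt1bcKO sample 3 was the highest of all samples, while the other two were the lowest. The log2 difference was 0.02 with a wide 95% interval from -0.62 to 0.66 (adjusted *P* = 0.985 in limma), and without Cpt1bcKO sample 3 it was -0.34 (adjusted *P* = 0.613 in limma). CM markers moved in the same direction as *Egln1* and *Egln3*, with 7 of 8 below 0, against 5709 of all 11364 genes tested. Their median log2 difference was -0.37, although 0 passed adjustment in limma. At an unadjusted *P* value below 0.05 in limma, 2 were lower, *Tnni3* (-1) and *Pln* (-0.85), against 7.22% of all genes tested. The study reports lower expression of maturation and contraction genes in the mutants, so these markers do not measure CM content alone. Their part in the hydroxylase values was not tested. The 3 hydroxylase genes summed to 1691, 1793 and 1465 normalized counts in CtrlCre and 1344, 1209 and 1045 in Cpt1bcKO samples, a sum that mostly follows *Egln1*.

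*Vhl* (ENSMUSG00000033933, chromosome 6 from 113623959 to 113631633, plus strand), whose product recognizes the hydroxylated α subunit, was low. It had 33, 35 and 50 normalized counts in CtrlCre and 29, 29 and 39 in Cpt1bcKO samples, and the groups overlapped. The log2 difference was -0.26 with a 95% interval from -0.88 to 0.35 (adjusted *P* = 0.726 in limma), and it was -0.08 without CtrlCre sample 3. No difference was detectable at this depth.

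*Vegfa* showed the largest difference of the 8 tested core genes with all samples, 0.78 on the log2 scale and just short of the threshold. Without CtrlCre sample 3 the difference of *Egln3* was larger (-0.81, against 0.66 for *Vegfa*). Without Cpt1bcKO sample 3 that of *Hif1a* was larger (0.76, against 0.66 for *Vegfa*). *Vegfa* (ENSMUSG00000023951, chromosome 17 from 46016993 to 46032369, minus strand) encodes a secreted growth factor for endothelial cells and is a classical HIF target. Its normalized counts were 1325, 1067 and 935 in CtrlCre and 1615, 1869 and 2209 in Cpt1bcKO samples 1, 2 and 3. The groups were apart, and among pairs of 1 CtrlCre and 1 Cpt1bcKO sample the female samples lay closest to each other. The 95% interval was 0.39 to 1.16, with an adjusted *P* = 0.0582 in limma (0.00105 unadjusted). In the male samples alone the log2 difference was 1.02 (adjusted *P* = 0.00814 in limma), and without Cpt1bcKO sample 1 it was 0.89 (adjusted *P* = 0.0248 in limma). Under the scaling that leaves out mitochondrial and rRNA genes it was 0.89 (adjusted *P* = 0.0249 in limma). Other changes moved it away from the threshold, to an adjusted *P* in limma of 0.186 and 0.216 without CtrlCre samples 2 and 3, 0.241 and 0.158 without Cpt1bcKO samples 2 and 3, and 0.204 without a trend of the prior variance. The females were 1 sample a group and allow no test. The higher sums of fibroblast markers in Cpt1bcKO samples moved with *Vegfa* and *Hif1a* between the groups, while within each group the sample with the highest fibroblast sum had the lowest *Vegfa* value. For *Hif1a*, the fibroblast sums ranked the Cpt1bcKO samples in the same order and the CtrlCre samples in the reverse order. The share of *mt-Rnr2*, 64.6%, 64.4% and 63.2% in CtrlCre and 61.8%, 72.6% and 80.8% in Cpt1bcKO samples 1, 2 and 3, ranked the samples within each group as *Vegfa* did. The part of either in these values was not tested.

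*Ankrd37* (ENSMUSG00000050914, chromosome 8 from 45996902 to 45999867, minus strand), the other target gene, had 1, 5 and 2 normalized counts in CtrlCre and 1, 2 and 4 in Cpt1bcKO samples. No difference could be detected at this depth. In GENCODE vM21 the gene extends further, to 46005707, and its exon length for the level per kb is that of this longer gene. There, 22.7% of its exon bases lie on exons of *Lrp2bp* and 3.7% on those of *Ufsp2*, both on the opposite strand. The authors excluded reads on several genes, but whether this took in genes on the opposite strand is not known.

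**Figure D3:**
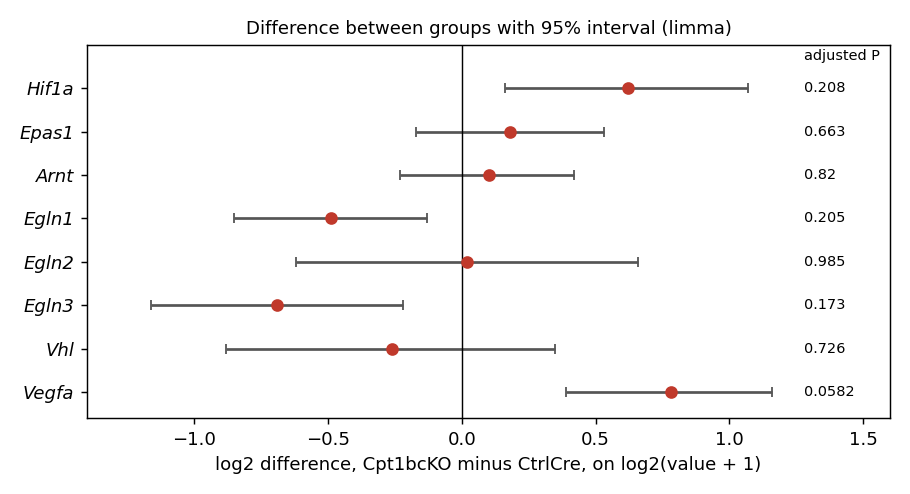
Log2 differences of the 8 tested core genes, Cpt1bcKO minus CtrlCre, with 95% intervals and adjusted P values from limma (*n* = 3 per group). The intervals of *Hif1a*, *Egln1*, *Egln3* and *Vegfa* leave out 0 before adjustment, and the smallest adjusted P value is 0.0582 for *Vegfa*.

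Whether related genes differed in their response was asked of the difference between paralogs within each sample, in 5 pairs. An exact two-sided permutation test of 3 against 3 samples cannot go below *P* = 0.1, so that no pair could pass. The log2 difference of *Hif1a* minus *Epas1* was 0.29, -0.29 and -0.73 in CtrlCre and 0.56, 0.09 and -0.06 in Cpt1bcKO samples. These groups overlapped (shift 0.44, exact *P* = 0.3, adjusted *P* = 0.5 over 5 pairs), and whether the 2 α subunits differed in response is not settled by a test that could not pass. The shift was 0.70 without CtrlCre sample 1, 0.19 without CtrlCre sample 3 and 0.25 without Cpt1bcKO sample 1. *Egln3* minus *Egln1* was -2.76, -2.50 and -2.74 in CtrlCre and -2.78, -2.92 and -2.90 in Cpt1bcKO samples. The shift of -0.20 was small and at the smallest *P* value the exact test can give (0.1, adjusted *P* = 0.25), the groups were apart by a narrow margin, and without CtrlCre sample 2 it was -0.12. *Egln3* minus *Egln2* shifted by -0.71 (exact *P* = 0.4, adjusted *P* = 0.5) and *Egln1* minus *Egln2* by -0.51 (exact *P* = 0.5, adjusted *P* = 0.5), in both cases with overlap and with Cpt1bcKO sample 3 furthest from the others. Without that sample the shifts were -0.19 and -0.01, and without Cpt1bcKO sample 1 they were -1.07 and -0.82. *Hif1a* minus *Hif3a* shifted by 2.01 (exact *P* = 0.1, adjusted *P* = 0.25), a value that rests on *Hif3a* at 0 to 5 normalized counts. That shift depended on the pseudocount and was 2.42 with 0.5 and 1.16 with 5.

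**Figure D4:**
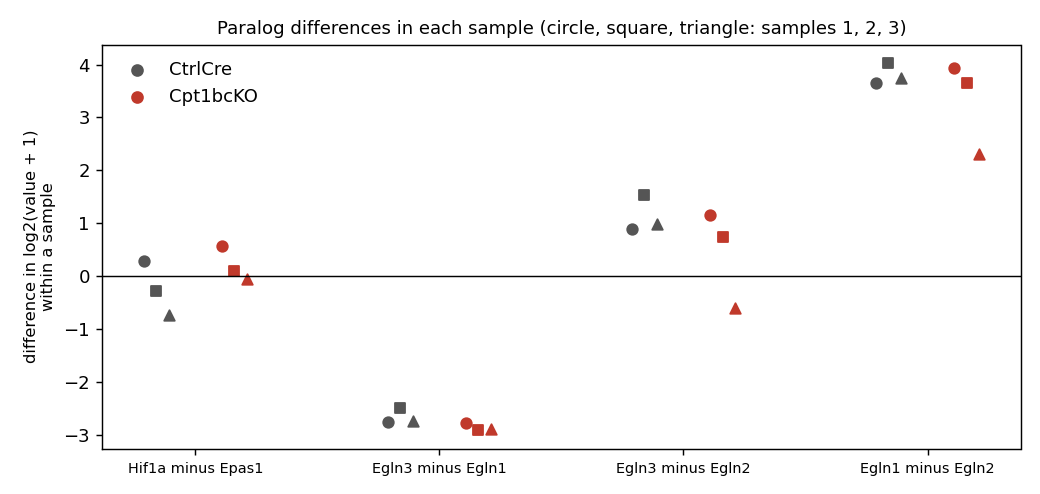
Difference in log2(value + 1) between 2 core genes within each sample, with CtrlCre in grey and Cpt1bcKO in red, for 4 pairs of paralogs (the pair with *Hif3a* is left out). The groups overlap except for *Egln3* minus *Egln1*, where they lie between -2.92 and -2.50 in all samples.

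The rest of the pathway was examined in 3 lists, which were also chosen with earlier results of these data known. Of 33 regulators of HIF synthesis, stability and activity, 30 were tested, and 1 was called higher and 0 lower in limma after adjustment, with 1.57% of all genes tested called. At an unadjusted *P* value below 0.05, 3 were higher and 2 lower, against 13.9% of all genes tested. These 5 became 1 without Cpt1bcKO sample 2, when the count over all genes tested went from 1578 to 1007. They became 3 to 7 when any other sample was left out, and 3 without a trend of the prior variance. The median log2 difference was -0.03, against 0.00 for all genes tested. *Mtor*, the kinase that promotes HIF1A synthesis, rose from 380, 489 and 458 to 793, 1016 and 809 normalized counts (log2 difference 0.98, standard error 0.161, adjusted *P* = 0.0151 in limma), and the groups were apart. Its adjusted *P* value in limma was 0.0542, 0.064 and 0.0991 without CtrlCre sample 1, CtrlCre sample 3 and Cpt1bcKO sample 2, and 0.112 without a trend of the prior variance. *Hsp90aa1*, a chaperone that stabilizes HIF1A, had a log2 difference of 0.40 (adjusted *P* = 0.228 in limma) and separate groups. *Cited2*, which competes with HIF1A for its coactivators, had 115, 100 and 59 normalized counts in CtrlCre and 61, 37 and 45 in Cpt1bcKO samples, which overlap (log2 difference -0.90, adjusted *P* = 0.198 in limma). *Per2*, a clock gene that can bind HIF1A, had a log2 difference of -0.89 (adjusted *P* = 0.248 in limma) with overlapping groups. *Hif1an*, the asparagine hydroxylase that blocks HIF transactivation, was among the genes at a difference near 0, with 0.03 (adjusted *P* = 0.962 in limma, named after its values were seen).

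Of 50 listed HIF targets outside glycolysis, 43 were tested, and 1 was called higher and 1 lower in limma after adjustment, against 1.57% of all genes tested. At an unadjusted *P* value below 0.05, 5 were higher and 6 lower, against 13.9% of all genes tested. These 11 became 4 without Cpt1bcKO sample 2, with 2 higher and 2 lower, and 8 to 11 when any other sample was left out. The groups were apart in 7 genes upwards and 7 downwards, against 18.7% of all genes tested, and the median log2 difference was -0.01. Genes past the unadjusted threshold thus lay on both sides of 0. *Bcl2*, which protects from apoptosis, rose with a log2 difference of 2.45 (adjusted *P* = 0.00338 in limma), the largest of the list. *Cp*, which encodes the iron oxidase ceruloplasmin, fell from 815, 827 and 926 to 395, 400 and 247 normalized counts (log2 difference -1.33, standard error 0.195, adjusted *P* = 0.0101 in limma, 0.0558 without CtrlCre sample 3 and 0.086 without a trend of the prior variance). *Ak4*, a mitochondrial adenylate kinase, had 134, 139 and 156 normalized counts in CtrlCre and 80, 62 and 111 in Cpt1bcKO samples (log2 difference -0.79, adjusted *P* = 0.149 in limma). *Bnip3*, a gene of mitophagy and cell death, had 363, 220 and 231 normalized counts in CtrlCre and 231, 108 and 94 in Cpt1bcKO samples (log2 difference -0.99, adjusted *P* = 0.2 in limma). It was -1.38 (adjusted *P* = 0.0135 in limma) without Cpt1bcKO sample 1 and -1.15 (adjusted *P* = 0.0169 in limma) in the male samples alone, but -0.76, -0.84 and -0.74 (adjusted *P* = 0.465, 0.563 and 0.423 in limma) without CtrlCre sample 1, Cpt1bcKO sample 2 and Cpt1bcKO sample 3. *Flt1*, the VEGF receptor VEGFR1 and also one of the endothelial markers, had 288, 547 and 601 normalized counts in CtrlCre and 758, 815 and 669 in Cpt1bcKO samples. Its log2 difference was 0.71 (adjusted *P* = 0.228 in limma), but 0.38 without CtrlCre sample 1 and 0.36 in the male samples alone. CtrlCre sample 1, the lowest in *Flt1*, was also lowest in the summed endothelial markers, whose part in this value was not tested.

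Of 19 glycolytic HIF targets, 16 were tested, and 0 were called higher and 1 lower in limma after adjustment, against 1.57% of all genes tested. At an unadjusted *P* value below 0.05, 2 were higher and 1 lower, against 13.9% of all genes tested, and the median log2 difference was 0.08. These 3 became 1 without Cpt1bcKO sample 1 or 2, and 2 or 3 when any other sample was left out. The median was 0.05 to 0.17 with a sample left out, and 0.19 under the scaling that leaves out mitochondrial and rRNA genes. *Ldha*, which converts pyruvate to lactate, fell from 1238, 1090 and 1164 to 799, 736 and 734 normalized counts (log2 difference -0.62, standard error 0.131, adjusted *P* = 0.0477 in limma). This call was close to the threshold, and omitting any single sample other than Cpt1bcKO sample 1 ended it, with adjusted *P* values in limma of 0.117 to 0.23, as did the scaling that leaves out mitochondrial and rRNA genes (0.103) and a fit without a trend of the prior variance (0.187). *Pgam1* and *Pfkp*, a mutase and a phosphofructokinase of glycolysis, had log2 differences of 0.68 and 0.39 (adjusted *P* = 0.277 and 0.311 in limma) with separate groups. With a sample left out, the difference was 0.46 to 0.85 for *Pgam1* and 0.26 to 0.48 for *Pfkp*. In the male samples alone it was 0.41 for *Pgam1* and 0.48 for *Pfkp*.

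**Figure D5:**
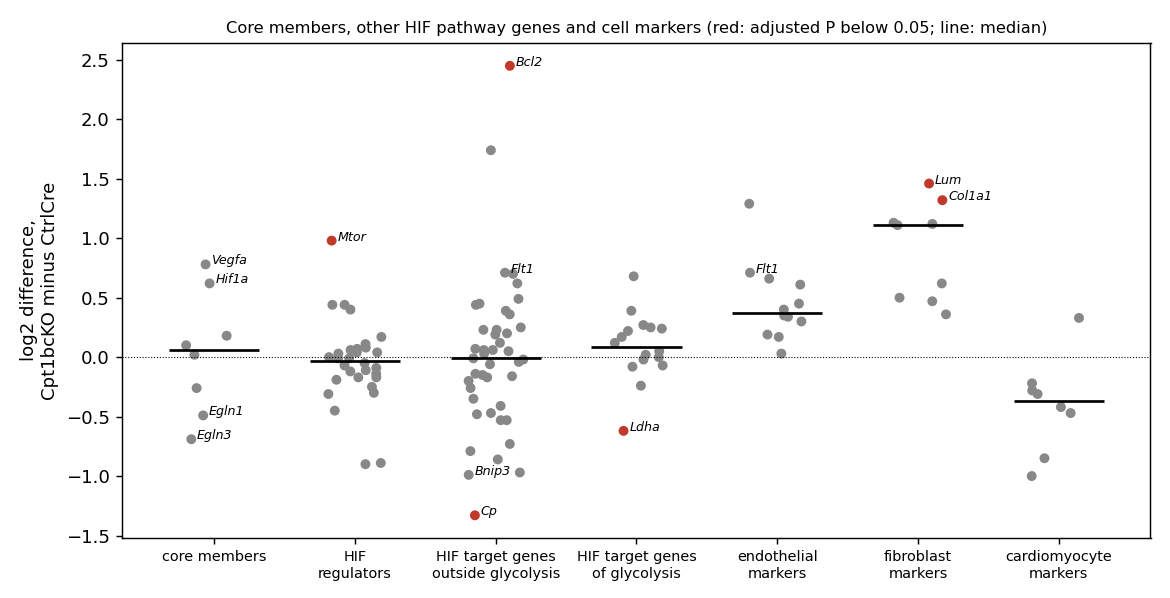
Log2 differences, Cpt1bcKO minus CtrlCre, of the tested core genes, 3 lists of other HIF pathway genes and markers of 3 cell types, with a line at the median and red points for an adjusted P value below 0.05 in limma. Medians of the HIF lists lie between -0.03 and 0.08, and single genes such as *Bcl2* at 2.45 and *Cp* at -1.33 lie far from them in opposite directions.

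The genes whose log2 values varied most like *Hif1a* over the 6 samples were searched among 6796 tested genes with a mean of at least 50, as a description. *Pdk4*, a kinase that inhibits pyruvate dehydrogenase, came first (Pearson's *r* = 0.992) with 5605, 3909 and 1573 normalized counts in CtrlCre and 21655, 8824 and 5458 in Cpt1bcKO samples. *Pgm2*, a phosphoglucomutase, and *Prelid3b* followed (*r* = 0.988 each). In all 3 genes and *Hif1a*, sample 1 (female) was the highest and sample 3 the lowest within each group. Values this close to 1 come from a search over many genes with 6 samples in 2 groups.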

How the data were processed

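RNA-seq of CMs from 3 CtrlCre and 3 Cpt1bcKO mice was used. According to the methods and the submitters' processing notes, the authors aligned trimmed reads to mm10 (GRCm38.p5) with STAR and counted reads on exons with featureCounts, leaving out reads on several genes or regions. The deposited signal values are read counts scaled by the authors with size factors and deposited as rounded whole numbers, and raw counts were not used. The strand setting and annotation release were not given in the sources used here. The log2 fold changes, P-values and means in the deposited table come from the authors' own comparison with DESeq2 and were not used.

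Values were transformed to log2(value + 1), and genes that reached 10 in 3 samples or more were fitted with limma 3.58.1 (R 4.3.3, lmFit and eBayes with a trend), with *P* values adjusted for all tested genes after Benjamini and Hochberg. Paralog differences were compared with an exact permutation test. The limma fit was tried on simulated data, and the permutation test was not. Exon lengths and overlaps are from GENCODE vM21 (GRCm38), in which 8 of the 10 core genes have the same start and end as in the table. *Epas1* and *Ankrd37* do not. Coordinates are those of the table, and promoters those of RefSeq. The core genes and the lists were chosen with earlier results of these data known. From the lists, genes were named if they had an adjusted *P* value below 0.05 or were among the 2 with the lowest unadjusted *P* value below 0.05 in a direction, plus *Bcl2* and *Bnip3*. Littermates served as controls, but no label says which samples share a litter. *P* values describe the spread between these samples.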

Additional observations from a re-analysis of the deposited data

How the results depend on the processing

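The alternatives were other scalings, filters, pseudocounts (0.5 and 5) and variance priors, a block for the replicate number, the male samples alone, and leaving out each sample in turn. Of the 520 values computed under them, 460 kept their direction and side of the threshold, moved by less than the replicates' spread or, for counts of genes, stayed within 1.5 times the reported count. The paralog differences among these values could not change side, because their exact test cannot go below *P* = 0.1. Of the 8 tested core genes, 1 (*Vegfa*) passed adjustment in limma with scaling to the total without mitochondrial and rRNA genes (0.89), with no filter (0.78), with genes required to reach 10 in each sample (0.78) and in the male samples alone (1.02). Leaving out single samples gave *Vegfa* 0.66 to 0.91, with adjusted *P* values in limma of 0.0248 to 0.241, and 0 to 1 core genes called. *Egln2* changed sign, at -0.03 without CtrlCre sample 2 or 3 and -0.34 without Cpt1bcKO sample 3, and reached 0.23 without Cpt1bcKO sample 1 and 0.32 in the male samples alone. Genes called numbered 41 without a trend of the prior variance and 42 to 329 with a sample left out, and genes at an unadjusted *P* value below 0.05 then numbered 1007 to 2262. The median of the regulators was 0.08 with scaling to the total and -0.12 to -0.02 with a sample left out, and that of the targets outside glycolysis was 0.10 with that scaling and -0.09 in the male samples. Divided by the longest transcript, *Hif1a*, *Arnt*, *Egln2* and *Vegfa* had 186, 55.9, 45.2 and 321 normalized counts per kb in CtrlCre CMs, which puts *Arnt* above *Egln2*. In Cpt1bcKO CMs the same division put *Hif1a* (288 per kb) above *Egln1* (268) and *Arnt* (59.7) above *Egln3* (49.6) and *Egln2* (48.7). The causes were not tested.

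Littermates served as controls in the study, but no label says that a replicate number marks a litter, and whether the numbers pair the samples is not known. They were treated as unpaired because not every pair correlated above 0.1. Deviations from the group means correlated across genes by 0.376, 0.255 and 0.068 between same-numbered samples, and CtrlCre sample 3 and Cpt1bcKO sample 3 correlated better with a sample of another number (0.119 and 0.147). With the replicate block, 603 genes and 4 core genes were called in limma, namely *Hif1a* (0.62, adjusted *P* = 0.0125), *Egln1* (-0.49, adjusted *P* = 0.0305), *Egln3* (-0.69, adjusted *P* = 0.0412) and *Vegfa* (0.78, adjusted *P* = 0.0205).

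*Hif3a* and *Ankrd37* were too low in reads for a test, and the intervals of *Vhl* and *Egln2* were wide.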
